A study of Homo sapiens with 8 samples.

Results

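BMP4 and 9 other genes of the bone morphogenetic protein (BMP) pathway were followed across P2 treatment and p53 genotype in HCT116 cells. HCT116 is an established line grown from a human colorectal carcinoma. The 10 listed genes were BMP4, BMP2, BMP7, SMAD6, ID1, ID2, ID3, BMPR1A, BMPR2 and BAMBI, and every probe annotated to one of these symbols was taken. Of the 10 genes 9 had a probe, with 11 probes in all, among 16922 genes with a symbol on 24526 probes. BMPR1A had no probe in the annotation used. BMP4 was chosen by its much lower signal after P2 on these same arrays, so its changes under P2 are given as a description and carry no test. The other genes were listed as pathway genes, with earlier results of these data known. They were tested in a fit over all probes that passed the detection filter, so their p-values and counts are not free of that choice.

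The 8 Illumina arrays form 4 groups of 2. The first pair of groups is HCT116p53-/- cells without treatment and HCT116p53-/- cells given P2, a small molecule, and the second pair is HCT116p53+/+ cells without and with P2. The dose was 25 µM according to the series design. All 4 groups share the HCT116 background, and nothing in the labels names a solvent for the untreated cells, a treatment time, or whether the p53-/- cells are a single clone. Their extraction notes mention frozen tissue although the source is a cell line. The gene deleted in p53-/- cells was not analysed here. The labels number the arrays within a group without saying whether they come from separate cultures, so each p-value reflects only how far these arrays scatter, and that scatter could be technical.

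Values are log2 intensities after background correction and quantile normalization, and a probe counted as detected on an array when its detection p against negative control probes was under 0.05. The median raw intensity was 52.2 to 69.1 and 52.1% to 57.1% of probes were detected per array. Of the 11 member probes 10 were detected on at least 2 arrays and were tested, and 9 were detected on all 8 arrays. On p53-/- untreated replicate 1, 215 tested probes fell short of replicate 2 by 1 log2 or more, among them 1 BMP4 probe. For the other 10 member probes, replicate 2 minus replicate 1 in that group lay between -0.42 (BMP7) and 0.26 (an ID1 probe). Probes lower on replicate 2, and such gaps in the other groups, were not counted. Whether 215 is an unusual number was thus not tested. The epithelial genes EPCAM, CDH1, KRT8 and KRT19 were among 8 of 11 colon epithelial markers detected on all arrays, while VIL1 and CDX1 were detected on none. The summed raw intensity of the 12 epithelial probes was 11875.6 to 16011.6 on untreated and 14401.9 to 22210.3 on treated arrays, and of 9 tested epithelial genes 6 rose in p53-/- and 2 in p53+/+ cells with P2, with 0 lower, where 11.8% and 5.71% of all tested probes rose. Markers of other cell types were mostly not seen on all arrays. For fibroblasts 2 of 9 were (COL1A1 and PDGFRA), for leukocytes 2 of 6 (CD68 and LYZ) and for endothelium 1 of 6 (PECAM1). The summed raw intensity of the 11 fibroblast probes was 498 to 593 on untreated and 457 to 566 on treated arrays, that of the 10 leukocyte probes 510.4 to 579 and 509 to 647.0, and that of the 6 endothelial probes 271 to 322 and 244 to 304. Of the tested genes of these 3 lists, 1 fibroblast gene fell in p53-/- cells, 1 leukocyte gene rose and 1 fell in p53-/- cells, 1 leukocyte gene rose in p53+/+ cells, and the endothelial gene was not called in either. The part of these markers in the results below was not tested.

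BMP ligands are secreted dimers of the TGF-beta superfamily that assemble type I receptors such as BMPR1A with the type II receptor BMPR2. The receptor complex phosphorylates SMAD1, SMAD5 and SMAD9, which enter the nucleus with SMAD4 and switch on target genes such as ID1, ID2, ID3, SMAD6 and BAMBI. SMAD6 and the pseudoreceptor BAMBI act back on the pathway as inhibitors, and the ID proteins bind E proteins and keep them off DNA. In the colon, BMP activity is high towards the crypt surface and opposes stem cell renewal at the crypt base. In colon cancer cells, BMP4 and BAMBI have also been described as targets of beta-catenin signalling.

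The promoter windows below were searched for letters that BMP SMADs are known to bind. They belong to the ligand gene BMP4 and to target genes that differed in their response to P2. Each is the 250 bases before a transcription start from RefSeq on GRCh38.p14, written 5′ to 3′ on the gene's strand. Such windows were given for 8 of the 10 members, with none for BMP2 and BMP7. Capitals mark the GC-rich box GGCGCC, the SMAD box CAGAC, which reads GTCTG when it lies on the other strand, and the SMAD palindrome GTCTAGAC. The palindrome holds neither of the other boxes.
BMP4 (chr14:53955051-53955300, minus strand): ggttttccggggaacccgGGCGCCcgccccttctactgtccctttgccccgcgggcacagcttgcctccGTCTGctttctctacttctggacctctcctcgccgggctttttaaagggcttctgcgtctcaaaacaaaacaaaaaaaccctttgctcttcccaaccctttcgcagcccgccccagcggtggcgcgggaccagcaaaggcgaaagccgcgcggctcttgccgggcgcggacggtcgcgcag
BAMBI (chr10:28677271-28677520, plus strand): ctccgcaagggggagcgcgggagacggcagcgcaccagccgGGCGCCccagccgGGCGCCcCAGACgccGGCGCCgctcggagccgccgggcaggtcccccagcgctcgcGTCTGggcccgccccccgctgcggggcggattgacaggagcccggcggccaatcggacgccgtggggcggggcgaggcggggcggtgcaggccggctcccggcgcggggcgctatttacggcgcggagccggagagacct
SMAD6 (chr15:66701986-66702235, plus strand): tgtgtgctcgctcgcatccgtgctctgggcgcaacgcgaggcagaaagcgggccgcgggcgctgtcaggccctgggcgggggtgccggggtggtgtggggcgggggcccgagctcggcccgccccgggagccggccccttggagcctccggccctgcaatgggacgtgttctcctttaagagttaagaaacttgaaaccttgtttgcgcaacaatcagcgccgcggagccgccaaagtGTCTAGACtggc
ID1 (chr20:31605039-31605288, plus strand): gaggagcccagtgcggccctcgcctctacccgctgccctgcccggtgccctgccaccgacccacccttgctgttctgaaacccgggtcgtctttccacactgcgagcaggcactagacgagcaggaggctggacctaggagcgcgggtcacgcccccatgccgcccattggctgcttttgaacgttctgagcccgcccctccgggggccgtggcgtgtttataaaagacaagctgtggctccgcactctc
The BAMBI window holds GGCGCC 3 times and CAGAC 2 times. The BMP4 window is the first of 3 listed for this gene and holds each of these boxes 1 time. Of the other BMP4 windows, 1 holds CAGAC and 1 holds none of the motifs. The SMAD6 window holds GTCTAGAC, whose first base lies 12 bases before the start, and neither other motif. The windows of ID1 and ID2 hold none of the 3 motifs, and that of ID3 holds CAGAC 1 time. The BMPR2 window holds GGCGCC 1 time and CAGAC 2 times, and the BMPR1A window holds none of the motifs. Over 35116 windows of the same length, searched on both strands, 16.4% hold GGCGCC, 38.0% hold CAGAC and 0.182% hold GTCTAGAC. These matches are letters in a window and were not tested for binding. Sequence outside the 250 bases was not searched, so a window without a match does not show that a gene lacks such sites.

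Across the members, BAMBI fell and ID2 and the dimmer ID1 probe rose with P2 in both genotypes, SMAD6 fell in p53-/- cells, and BMP7, BMPR2 and ID3 did not pass the test in either genotype. Counted over the 8 tested member probes outside BMP4, limma (threshold of 0.05 on the Benjamini-Hochberg adjusted p) called 4 in p53-/- cells, where 25.4% of all tested probes were called. Of these 4, 2 were higher and 2 lower, against 11.8% higher and 13.6% lower over all tested probes. In p53+/+ cells it called 4, against 12.0% of all tested probes. Of these, 3 were higher and 1 lower, against 5.71% and 6.29% of all. The median change of the 8 probes was 0.099 log2 in p53-/- and 0.15 log2 in p53+/+ cells, and that of all 14574 tested probes -0.042 and -0.0054 log2. Both ID1 probes are among the 8 and share a gene.

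**Figure D1:**
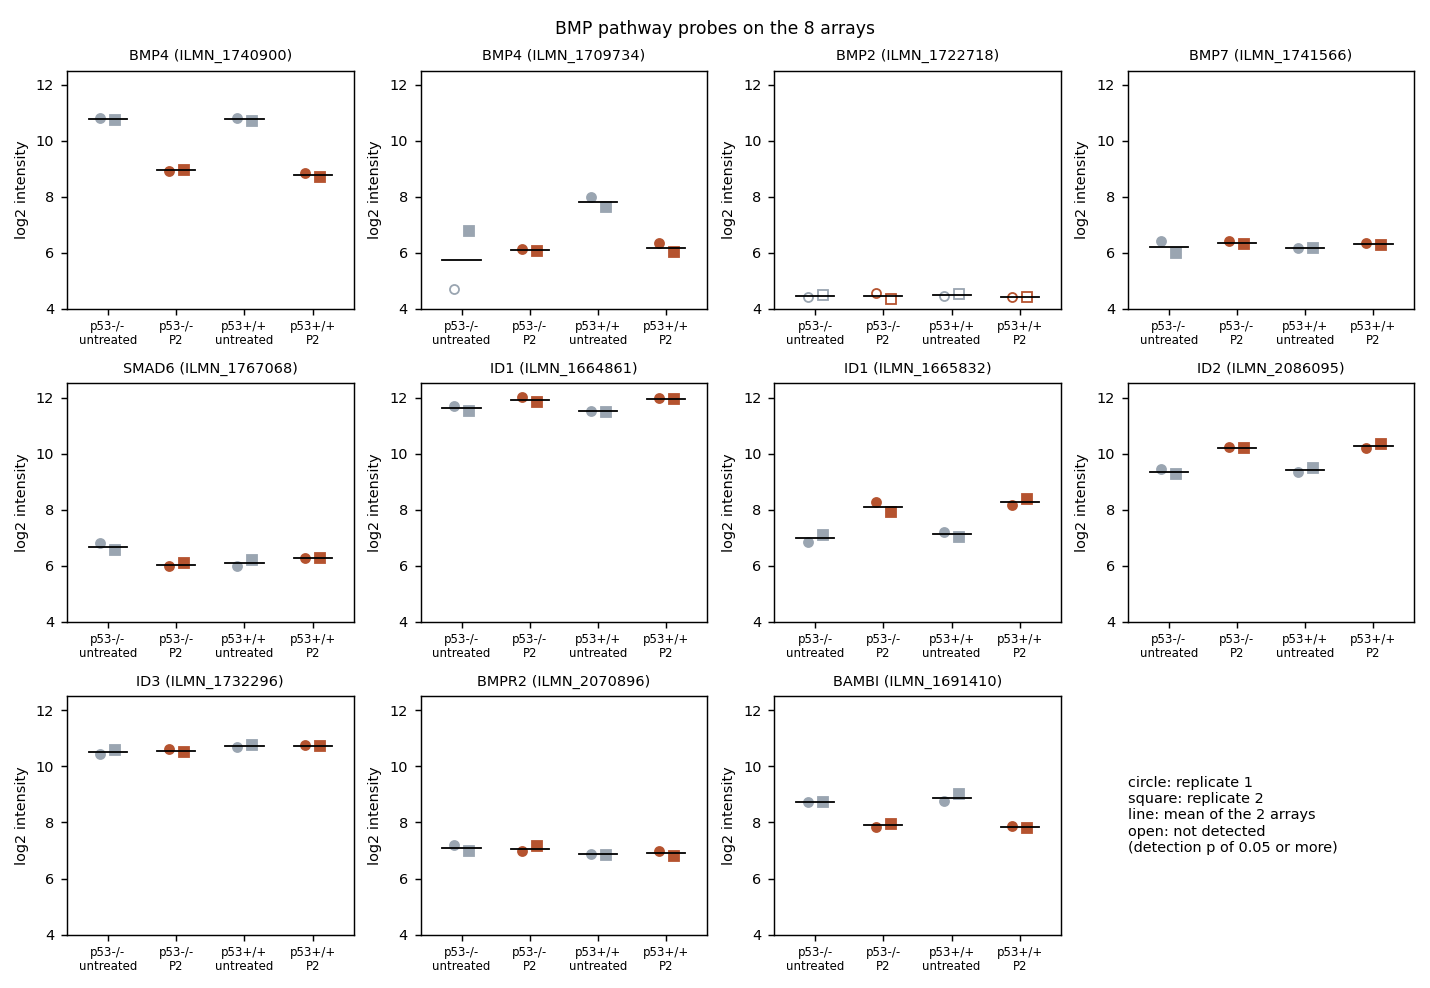
Log2 intensity (y axis) of the 11 member probes on each of the 8 arrays, by genotype and treatment (x axis). Circles are replicate 1, squares replicate 2, lines the mean of 2 arrays, and open symbols arrays without detection. BMP4 (ILMN_1740900) and BAMBI were lower and both ID1 probes and ID2 higher on all 4 P2-treated arrays, and BMP2 was detected on none.

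The first question was how P2 changed the ligand genes. BMP4, a ligand that patterns the gut and opposes crypt stem cell renewal, was much lower after P2 in both genotypes on its brighter probe ILMN_1740900. That probe read 10.80 and 10.74 in untreated and 8.93 and 8.95 in P2-treated p53-/- cells. It read 10.81 and 10.70 in untreated and 8.83 and 8.70 in P2-treated p53+/+ cells. All 4 treated arrays lay below all 4 untreated arrays, with no overlap in either genotype. Separation of 2 from 2 arrays within a genotype was also seen for probes not called, such as BMP7 and SMAD6 in p53+/+ cells. Its share over all probes was not counted. The change was -1.83 ± 0.11 log2 (SE, n = 2 arrays per group), 3.55-fold lower, in p53-/- cells and -1.99 ± 0.11 log2, 3.98-fold lower, in p53+/+ cells. In such bulk RNA, fewer cells expressing a gene and less RNA per cell cannot be told apart.

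By level, the 4 groups on this probe ran from untreated p53-/- cells (10.77 ± 0.05, SD, n = 2) and untreated p53+/+ cells (10.76 ± 0.07) to treated p53-/- cells (8.94 ± 0.02) and treated p53+/+ cells (8.77 ± 0.09). The untreated groups overlapped, and the treated groups did not, though their difference below did not pass. The p53+/+ minus p53-/- difference was -0.01 ± 0.11 log2 without P2 (limma, Benjamini-Hochberg adjusted p = 0.964) and -0.18 ± 0.11 with P2 (adjusted p = 0.491). The difference between the P2 changes of the genotypes was -0.16 ± 0.15 log2. It is a description without a test and does not show that the genotypes respond alike.

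The other BMP4 probe, ILMN_1709734, was likewise lower with P2 in p53+/+ cells, and in p53-/- cells its arrays overlapped. The p53+/+ arrays read 7.98 and 7.65 without P2 and 6.34 and 6.01 with P2, a change of -1.64 ± 0.51 log2 (3.12-fold lower) with no overlap. The p53-/- arrays read 4.71 and 6.79 without P2 and 6.12 and 6.05 with P2, so both treated arrays lay between the 2 untreated ones. Replicate 1 of untreated p53-/- cells was the only array without detection of this probe, at a raw intensity of 54.4 against 118 on replicate 2. The fitted change was 0.34 ± 0.51 log2. Set against replicate 2 alone it was -0.70 log2, and on the brighter probe -1.79.

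The changes of the 2 BMP4 probes thus differed by 2.16 log2 in p53-/- cells and by 0.35 log2 in p53+/+ cells (dimmer minus brighter probe). The SE was 0.77 when the spread of the within-array difference was pooled over all groups. It was 0.13 when untreated p53-/- cells, the group with the undetected array, were left out of that spread. This smaller SE applies only to the difference in p53+/+ cells, since the difference in p53-/- cells includes the group left out. Without p53-/- untreated replicate 1 the difference in p53-/- cells was 1.11 log2. Over the 8 arrays the probes correlated with r = 0.33, and over the 7 arrays without that replicate with r = 0.89, descriptions over arrays that share treatment groups. The dimmer probe also read 2.07 ± 0.51 log2 higher in untreated p53+/+ than in untreated p53-/- cells (adjusted p = 0.0838), a gap of 1.01 without p53-/- untreated replicate 1. On treated arrays this gap was 0.09 ± 0.51 (adjusted p = 0.958). Both probes are annotated to the same transcript accession, and where on the transcript each lies was not analysed here.

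**Figure D2:**
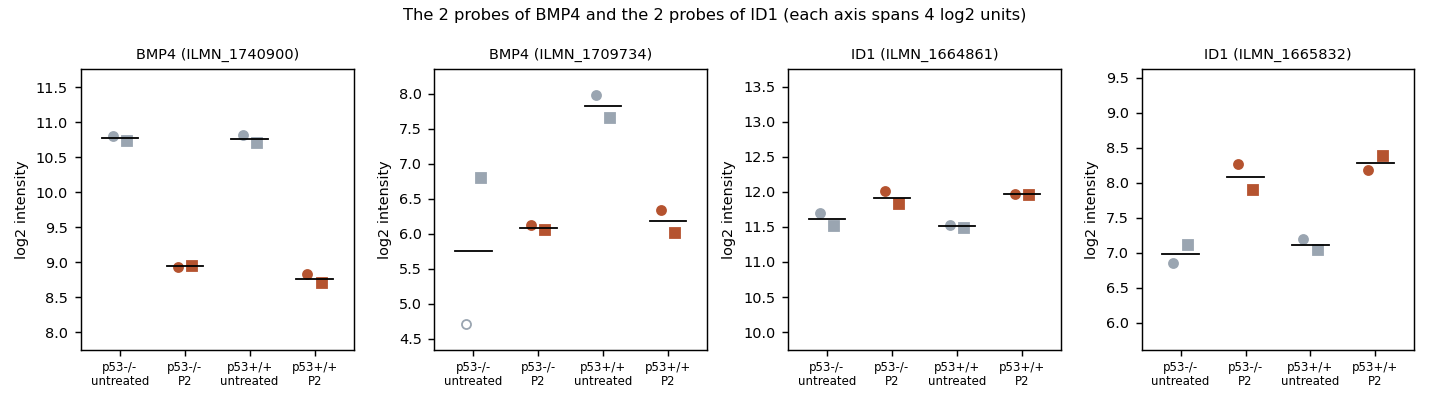
Log2 intensity (y axes, each spanning 4 log2 units) of the 2 probes of BMP4 and the 2 probes of ID1 on the 8 arrays, by group (x axis), with circles for replicate 1, squares for replicate 2, lines for means and an open symbol for no detection. The brighter BMP4 probe separates treated from untreated arrays in both genotypes, the dimmer one only in p53+/+ cells, and p53-/- untreated replicate 1 stands apart at 4.71. Both ID1 probes are higher on treated arrays.

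The other ligand genes among the members did not pass the test. BMP7, a ligand that pairs with BMP2 or BMP4 in heterodimers, read 6.42 and 6.001 in untreated and 6.41 and 6.31 in treated p53-/- cells, and 6.17 and 6.18 against 6.34 and 6.27 in p53+/+ cells. Its arrays overlapped between treatments in p53-/- cells and did not in p53+/+ cells. Its change was 0.15 ± 0.14 log2 (limma adjusted p = 0.476) in p53-/- cells and 0.13 ± 0.14 (adjusted p = 0.586) in p53+/+ cells. The BMP2 probe, for the ligand closest to BMP4, read 4.36 to 4.56 and was detected on none of the 8 arrays, so no change was computed.

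A wider list of 14 BMP family ligands had 13 genes with a probe, of which 5 passed the detection filter. Apart from BMP4, which carries no test here, 1 of the other 4 fell and 0 rose in each genotype, where 13.6% of all tested probes fell in p53-/- and 6.29% in p53+/+ cells. Besides BMP7 above, BMP5 changed by -0.15 log2 in p53-/- and -0.03 in p53+/+ cells and BMP8B by -0.02 and -0.19. Neither was called. The gene that fell was BMP6, a ligand best known for hepcidin control in the liver. It read 6.56 and 6.44 without and 5.38 and 5.07 with P2 in p53-/- cells, a fall of 1.27 ± 0.17 log2 (2.42-fold, adjusted p = 0.00142). In p53+/+ cells it read 5.95 and 6.02 without and 5.32 and 4.81 with P2, a change of -0.91 ± 0.17 log2 (adjusted p = 0.0108). Leaving out p53+/+ untreated replicate 1, untreated replicate 2 or P2 replicate 2 raised the adjusted p to 0.0631, 0.0735 and 0.0669. With a normexp offset of 50 the BMP6 changes shrank to -0.80 and -0.52 log2, and without background correction that in p53+/+ cells to -0.60.

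At the receptors little moved. BMPR2, the type II receptor, read 7.19 and 6.999 in untreated and 6.97 and 7.16 in treated p53-/- cells, and 6.89 and 6.83 against 6.98 and 6.81 in p53+/+ cells. The treatments overlapped in both genotypes. The change was -0.03 log2 in p53-/- cells (95% interval -0.31 to 0.24, adjusted p = 0.873) and 0.03 in p53+/+ cells (-0.24 to 0.31, adjusted p = 0.897). Of 12 receptor and co-receptor genes, 11 had a probe and 7 were tested. In p53-/- cells 1 rose and 0 fell, with a median of -0.12 log2, and in p53+/+ cells 0 rose and 0 fell, with a median of 0.03, again against 25.4% and 12.0% of all probes called. The riser was NEO1, a receptor for netrins and RGM proteins, at 0.47 ± 0.13 log2 in p53-/- cells (adjusted p = 0.0325), against 0.44 ± 0.13 in p53+/+ cells (adjusted p = 0.0657). The call ended without p53-/- untreated replicate 2 (0.29 log2, adjusted p = 0.149), either treated p53-/- array (0.113 and 0.125) or p53+/+ P2 replicate 2 (0.0504), and with median scaling (0.205) or a fit on the p53-/- groups alone (0.0784).

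The SMADs that carry the signal did not pass the test either. Of SMAD1, SMAD4, SMAD5 and SMAD9, 3 were tested and 0 were called in either genotype. Of all tested probes 25.4% were called in p53-/- and 12.0% in p53+/+ cells. So few genes cannot be set apart from these shares. SMAD9 was detected on 0 arrays. The tested SMAD1 probe was detected on 3 arrays and read 4.57 to 4.92. The lowest detected signal per array was 4.73 to 4.92, so a change in SMAD1 could be missed. SMAD4, the shared partner, read 9.95 to 10.23 over the 8 arrays and changed by -0.05 ± 0.11 log2 in p53-/- and -0.04 ± 0.11 in p53+/+ cells. SMAD5 read 9.59 to 9.97 on its brightest probe, which changed by -0.10 ± 0.10 log2 in p53-/- and -0.21 ± 0.10 in p53+/+ cells. Its other tested probe changed by 0.30 ± 0.18 and 0.03 ± 0.18 log2.

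Among the inhibitors, BAMBI fell in both genotypes. This membrane protein resembles a type I receptor without a kinase domain. It read 8.74 and 8.72 without and 7.84 and 7.96 with P2 in p53-/- cells, and 8.75 and 9.01 against 7.86 and 7.80 in p53+/+ cells. Every treated array lay below every untreated one. BAMBI fell by 0.83 ± 0.12 log2 (1.77-fold, adjusted p = 0.00183) in p53-/- cells and by 1.05 ± 0.12 log2 (2.07-fold, adjusted p = 0.000817) in p53+/+ cells. The difference between these changes was -0.22 ± 0.17 log2, with an interval of -0.60 to 0.16 (adjusted p = 0.555).

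SMAD6, an inhibitory SMAD induced by BMP signals, fell in p53-/- cells and did not pass in p53+/+ cells. The p53-/- arrays read 6.82 and 6.54 without and 5.99 and 6.09 with P2, a fall of 0.64 ± 0.13 log2 (1.56-fold, adjusted p = 0.00841). The p53+/+ arrays read 5.98 and 6.20 without and 6.26 and 6.27 with P2, a change of 0.18 ± 0.13 log2 (adjusted p = 0.429). Untreated p53-/- arrays were thus the high ones, and the other 6 arrays lay between 5.98 and 6.27. The difference between the P2 changes was 0.82 ± 0.18 log2 (unadjusted p = 0.00160, adjusted p = 0.106), and that between untreated genotypes -0.59 ± 0.13 log2 (adjusted p = 0.0727), so neither passed. When p53-/- P2 replicate 1 was left out, the fall in p53-/- cells missed the threshold (adjusted p = 0.0623). Without p53-/- untreated replicate 2 the difference in response was 0.96 log2 and the gap between untreated genotypes -0.73 log2. That setting leaves untreated p53-/- cells with replicate 1 alone, the array on which 215 tested probes lay 1 log2 or more below replicate 2.

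A list of 9 intracellular inhibitors, SMAD6 included, had 8 tested genes on 12 probes. A gene counted as called when any of its probes was, while the shares over all are per probe. In p53-/- cells 3 genes fell and 0 rose (13.6% and 11.8% of all tested probes), and in p53+/+ cells 0 were called (12.0% of all). The list medians were -0.01 and 0.03 log2. SMURF1, a ubiquitin ligase for BMP SMADs, changed by -0.66 ± 0.21 log2 (adjusted p = 0.0459). FKBP1A, which keeps type I receptors inactive, changed by -0.47 ± 0.15 on its dimmest of 3 probes (adjusted p = 0.0450), and its other probes changed by -0.12 and 0.07. In p53+/+ cells SMURF1 changed by 0.09 ± 0.21 and this FKBP1A probe by -0.25 ± 0.15. The SMURF1 call held without p53-/- untreated replicate 2 or P2 replicate 1 and ended without any other array, with -0.31 log2 (adjusted p = 0.240) without p53-/- P2 replicate 2. Without p53-/- P2 replicate 1 the SMURF1 change was -0.9999 log2, and with an offset of 50 it was -0.41 log2. The FKBP1A call ended without p53-/- untreated replicate 1 (0.170), P2 replicate 1 (0.163) or P2 replicate 2 (0.134).

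Of 20 secreted antagonists and modulators, 17 had a probe and 8 were tested. In p53-/- cells 1 rose and 2 fell (median -0.15 log2), where 25.4% of all tested probes were called. In p53+/+ cells 0 rose and 2 fell (median -0.21), where 12.0% of all were called. The classical antagonists NOG and GREM1 were not tested, since their probes were detected on fewer than 2 arrays. FSTL3, a follistatin-like antagonist, read 8.28 and 8.24 without and 7.48 and 7.36 with P2 in p53-/- cells, a fall of 0.84 ± 0.11 log2 (adjusted p = 0.00140). In p53+/+ cells it changed by -0.42 ± 0.11 (adjusted p = 0.0452), a call that ended when any p53+/+ array (0.0773 to 0.241) or either treated p53-/- array (0.0622 and 0.0650) was dropped. TWSG1, which modulates BMP binding to chordin, fell by 0.55 ± 0.12 log2 (adjusted p = 0.0106) in p53-/- cells and by 0.52 ± 0.12 (adjusted p = 0.0236) in p53+/+ cells. Dropping p53-/- P2 replicate 2 ended the first of these calls (0.0678), and dropping any p53+/+ array the second (0.0503 to 0.149). BMP1, a chordin-cleaving protease and no BMP ligand despite its name, changed by 0.39 ± 0.13 in p53-/- cells (adjusted p = 0.0489), a call that held without p53-/- untreated replicate 2 and ended without each of the other 7 arrays.

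**Figure D3:**
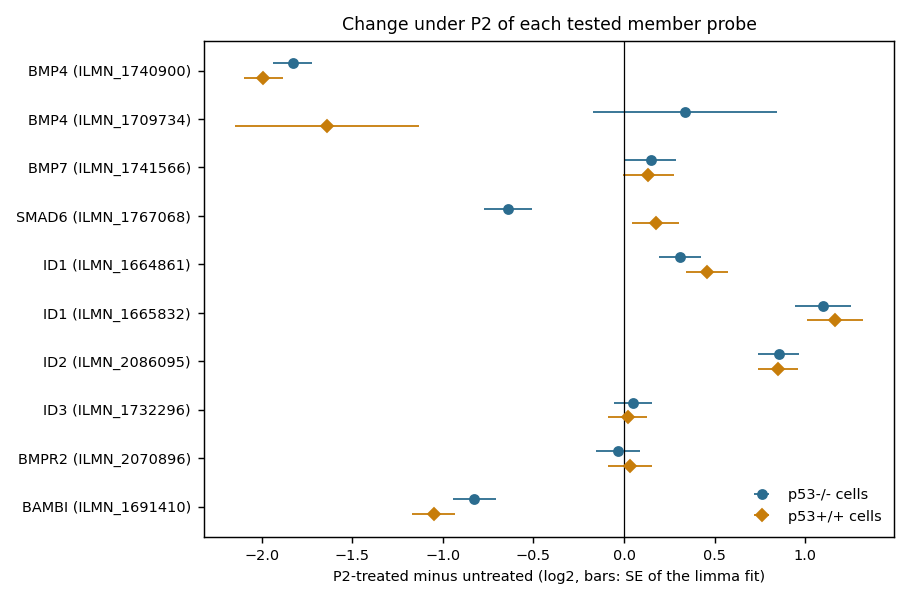
Change under P2 (x axis, log2 of treated minus untreated, bars SE of the limma fit) of the 10 tested member probes (y axis) in p53-/- cells (circles) and p53+/+ cells (diamonds), 2 arrays per group. BMP4 (ILMN_1740900) and BAMBI lie below 0 and ID1 and ID2 above 0 in both genotypes, while ID3, BMPR2 and BMP7 lie near 0.

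The target genes did not move in 1 direction. ID1, which blocks E proteins and differentiation, rose on its dimmer probe ILMN_1665832. It read 6.85 and 7.11 without and 8.26 and 7.90 with P2 in p53-/- cells, a rise of 1.10 ± 0.15 log2 (2.14-fold, adjusted p = 0.00162). On the p53+/+ arrays it read 7.20 and 7.03 without and 8.18 and 8.38 with P2, a rise of 1.17 ± 0.15 log2 (2.24-fold, adjusted p = 0.00185). All 4 treated arrays lay above all 4 untreated ones.

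The brighter ID1 probe ILMN_1664861 was also higher on treated arrays, by less. It read 11.71 and 11.51 without and 12.01 and 11.82 with P2 in p53-/- cells, a change of 0.31 ± 0.12 log2 (adjusted p = 0.0814). In p53+/+ cells it read 11.52 and 11.49 without and 11.97 and 11.95 with P2, a change of 0.46 ± 0.12 log2 (adjusted p = 0.0349). With each p53+/+ array dropped in turn the adjusted p was 0.129 to 0.157, and with median scaling 0.373, so this call rests on all 4 arrays and on the scaling. The changes of the 2 ID1 probes differed by 0.79 log2 in p53-/- and 0.71 log2 in p53+/+ cells (dimmer minus brighter, SE 0.19). Unlike the BMP4 pair they ran the same way in both genotypes, and neither was among the 215 low probes.

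ID2, another inhibitor of E proteins, rose in both genotypes. It read 9.44 and 9.28 without and 10.24 and 10.19 with P2 in p53-/- cells, a rise of 0.85 ± 0.11 log2 (1.81-fold, adjusted p = 0.00130). The p53+/+ arrays read 9.35 and 9.47 without and 10.19 and 10.33 with P2, a rise of 0.85 ± 0.11 log2 (1.80-fold, adjusted p = 0.00187). The groups did not overlap in either genotype, a separation that some uncalled probes also showed. The interval of the difference between these changes was -0.36 to 0.36 log2, and that for the dimmer ID1 probe -0.43 to 0.56.

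ID3, the third family member listed, stayed near its untreated level. It read 10.44 and 10.59 without and 10.61 and 10.52 with P2 in p53-/- cells, and 10.70 and 10.75 against 10.77 and 10.72 in p53+/+ cells. The arrays overlapped in both genotypes. The change was 0.05 log2 (95% interval -0.19 to 0.29, adjusted p = 0.760) and 0.02 log2 (-0.22 to 0.26, adjusted p = 0.931). The fourth family gene, ID4, was detected on 0 arrays.

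Of 16 BMP target genes in a wider list, 10 were tested. In p53-/- cells 2 rose and 3 fell (median -0.17 log2), against 11.8% and 13.6% of all tested probes. In p53+/+ cells 2 rose and 2 fell (median -0.01), against 5.71% and 6.29% of all. The risers were ID1 and ID2 in each genotype, and BAMBI and MSX2 were among those that fell in each. MSX2, a homeobox repressor induced by BMPs, read 5.86 and 5.88 without and 5.24 and 5.25 with P2 in p53-/- cells, a change of -0.62 ± 0.17 log2 (adjusted p = 0.0284). In p53+/+ cells it read 5.87 and 6.44 without and 4.88 and 4.65 with P2, a fall of 1.39 ± 0.17 log2 (adjusted p = 0.00135). Only 1 of the 2 treated p53+/+ arrays detected MSX2, and with an offset of 50 its changes shrank to -0.36 and -0.79 log2. With each p53-/- array dropped in turn, the call in p53-/- cells ended (adjusted p 0.0564 to 0.121). MSX1, its relative, read 12.30 to 12.93 over the arrays and did not pass in either genotype (-0.12 and -0.41 log2, adjusted p = 0.495 and 0.0592).

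Of the E proteins that ID proteins bind, TCF3 and TCF12 were tested. TCF3 read 10.09 and 10.05 without and 9.33 and 9.26 with P2 in p53+/+ cells, a fall of 0.77 ± 0.17 log2 (adjusted p = 0.0194), and changed by -0.41 ± 0.17 in p53-/- cells (adjusted p = 0.102). Its untreated p53-/- arrays stood apart, at 9.53 on replicate 1 and 10.03 on replicate 2. It ended with each p53+/+ array dropped in turn (adjusted p 0.0896 to 0.108). TCF12 changed by -0.01 and -0.30 log2 (adjusted p = 0.943 and 0.121).

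**Figure D4:**
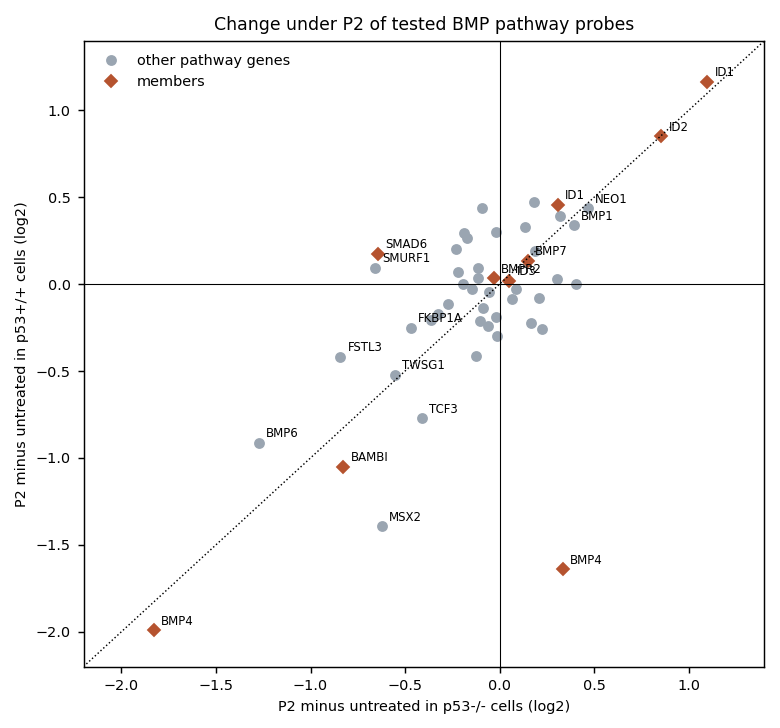
Change under P2 in p53-/- cells (x axis, log2) against p53+/+ cells (y axis, log2) for the tested probes of the members (diamonds) and of the other pathway genes (circles), with the dotted line at equal change. Names mark all members and the other genes called in either genotype. The dimmer BMP4 probe (0.34 and -1.64) lies far from the line, and SMAD6 (-0.64 and 0.18) lies beside SMURF1.

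Whether genotype altered the response was asked by the difference between the 2 P2 changes. Limma called 0 of the 8 member probes outside BMP4 and 0% of all tested probes, with 1 of the 8 (SMAD6) and 2383 of all probes at an unadjusted p under 0.05. Between untreated genotypes 0 of the 8 were called, against 0.0686% of all tested probes (0.0412% higher and 0.0274% lower in p53+/+ cells), with 1 of the 8 (SMAD6) and 2892 of all probes at an unadjusted p under 0.05. Between treated genotypes 0 of the 8 and 0% of all were called, with 0 of the 8 and 2011 of all at an unadjusted p under 0.05. The largest gap between genotypes among these 8 probes on treated arrays was SMAD6 (0.22 ± 0.13 log2, adjusted p = 0.474).

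The genes whose values over the 8 arrays were most like the brighter BMP4 probe were GLIS3, ANTXR2, TM4SF18, DNER and ING1, with Pearson r from 0.995 to 0.997 among tested probes with a symbol. Since the arrays fall into treated and untreated sets, such an r mostly reports that a gene was lower on every treated array. GLIS3, a zinc finger transcription factor, was not detected with P2 and was at least 4.24-fold lower in p53-/- and at least 3.78-fold lower in p53+/+ cells. ANTXR2, an anthrax toxin receptor, differed by -1.70 and -1.74 log2, DNER, a Notch ligand-like protein, by -3.03 and -3.11, and ING1, a chromatin reader, by -0.47 and -0.56. TM4SF18, a membrane protein, was 21.2-fold lower in p53-/- cells and, not detected with P2, at least 25.6-fold lower in p53+/+ cells.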

How the data were processed

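Per the labels, RNA was converted to biotin-labelled cRNA before hybridization to Illumina chips, and GenomeStudio is named in the submitters' processing notes. The authors deposited raw probe intensities, each with a detection p-value. They also deposited log2 values, which equal the quantile-normalized log2 of those intensities to within 5.0e-09. The files name no genome build.

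From the intensities, background was removed by normexp with the detection p-values (offset 16), followed by log2 and quantile normalization (limma 3.58.1, R 4.3.3). Of 24526 probes, 14574 passed a detection p below 0.05 on 2 or more arrays. Gene symbols came from the platform annotation and were updated through Entrez IDs. All 8 arrays entered a single fit with a mean for each group, which pools the spread over 4 residual and 5.15 prior degrees of freedom. Each of 5 contrasts was tested two-sided by limma, with Benjamini-Hochberg adjustment across every tested probe and a threshold of 0.05. For a gene undetected in a group the fold is a lower bound, set by the dimmest detected signal per array. Only 2 arrays per group limit the precision.

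Members and lists were chosen with earlier results of these data known. All member probes were named, along with up to 4 further called genes per pathway list and the 5 genes most like BMP4. List medians use the brightest tested probe of a gene. In the list counts a gene is called when any of its tested probes is, whereas the shares over all are per probe. Alternatives covered background, scaling, filter, moderation, the replicate block and omitted arrays. The fit was tested on simulated data. matplotlib 3.10.9 and Python 3.11.15 drew the plots.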

Additional observations from a re-analysis of the deposited data

How the results depend on the processing

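The settings varied were the background (none, or a normexp offset of 50), the scaling (median or cyclic loess), the authors' own log2 values, the filter (none, or detection p below 0.01 on every array), a variance trend with robust moderation, a fit restricted to the compared groups, a replicate block, and each array dropped in turn. A group reduced to a lone array is assumed to vary like the others. The number of called member probes outside BMP4 was 3 to 4 in p53-/- and 3 to 4 in p53+/+ cells with an array dropped, and otherwise 4 to 5 and 3 to 4. BAMBI, ID2 and the dimmer ID1 probe were called in the same direction in both genotypes in all 18 settings. For the difference in response the number was 0 to 1 with an array dropped, the 1 being SMAD6 without p53-/- untreated replicate 2. Between untreated genotypes it was 0 to 1 with an array dropped (SMAD6, the same array) and 1 under the stricter filter (SMAD6, adjusted p = 0.0469). The changes of the BMP4 probes in p53-/- cells differed by 1.11 to 3.26 log2 with an array dropped and by 1.89 to 2.37 otherwise, and in p53+/+ cells by 0.23 to 0.47 and 0.36 to 0.62. The brighter ID1 probe was called in p53-/- cells with an offset of 50 (adjusted p = 0.0413) and with the variance trend (0.0330). The gap between untreated genotypes on the dimmer BMP4 probe was called from the authors' values or uncorrected intensities (1.62 log2, limma adjusted p = 0.0407). It was also called under median scaling (2.12 log2, adjusted p = 1.96e-06), at a size close to the 2.07 log2 of the main fit. Under that scaling the calls between untreated genotypes over all probes rose from 10 to 621. Without p53-/- untreated replicate 2 the gap was 3.13 log2. That group was then only replicate 1, on which this probe was not detected. The cause was not tested for any of these.

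Median scaling moved the median change of all tested probes from -0.042 to -0.12 log2 in p53-/- and from -0.0054 to -0.11 in p53+/+ cells. It also took the calls in p53+/+ cells from 832 higher and 917 lower to 296 and 717 (1013 in all). Over all probes the calls in p53-/- cells were 3706, with 2400 from the 2 groups alone and 1536 to 3878 with an array dropped. In p53+/+ cells they were 1749, with 584 to 2301. Calls for the difference in response were 0, with 466 under median scaling, 182 with the variance trend, 87 under the stricter filter, 73 without background correction and from the authors' values, 973 without p53-/- untreated replicate 2 and 80 without p53+/+ P2 replicate 1. Between untreated genotypes the 10 calls became 621, 255, 187 and 335 under the first 4 of these settings, 6 with an offset of 50, 0 with cyclic loess, no filter, the replicate block or the 2 groups alone, and 0 to 1319 with an array dropped. Between treated genotypes calls went from 0 to at most 58. The replicate numbers were not taken as pairs, since the labels say only that they number replicates. Deviations of same-numbered arrays from their group means correlated with r from -0.19 to 0.20. Between groups other than untreated p53-/- cells r was 0.095 to 0.20. With the replicate block the member counts were 4 and 4, and the calls of FKBP1A and BMP1 in p53-/- cells and of FSTL3 in p53+/+ cells ended. Other settings also ended calls in p53-/- cells of SMURF1 (cyclic loess, no filter, the 2 groups alone), FKBP1A (median scaling, cyclic loess, no filter), BMP1 (median scaling, no filter, the 2 groups alone) and MSX2 (no filter, adjusted p = 0.0614), and of FSTL3 in p53+/+ cells (median scaling, cyclic loess). Changes of dim probes depend on the background step: BMP6, SMURF1 and MSX2 moved by over 1.5 times with an offset of 50.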
